A study of Mus musculus and Rattus norvegicus with 32 samples.

Results

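Hepatocyte identity transcription factors are the 8 genes Hnf4a, Onecut1, Foxa1, Foxa2, Foxa3, Cebpa, Cebpb and Cebpd. Their probe sets were taken by gene symbol: a probe set belonged here when its annotation gave exactly 1 symbol and that symbol was one of the 8. This gave 23 probe sets, 8 of 12422 on the mouse array and 15 of 8740 on the rat array, for 8 of the 9931 genes named on either array. In mouse each gene had 1 probe set. In rat Hnf4a and Cebpd had 3 each, Foxa3, Cebpa and Cebpb had 2 each, and Onecut1, Foxa1 and Foxa2 had 1 each. Probe sets of 1 gene share their source RNA and are not replicates.

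Liver RNA of male B6C3F1 mice (an F1 hybrid laboratory mouse) and male SD rats was measured on 1-colour Affymetrix arrays after trichloroethylene (TCE, a chlorinated solvent) or its vehicle, corn oil. TCE was given by gavage at 1500 mg per kg body weight, either on 1 day to animals aged 8 weeks or daily over 14 days to animals that were 10 weeks old at collection, with collection 18 h after dosing ended. Each combination of species, schedule and treatment had 4 arrays, so the 32 arrays formed 8 groups, and the oil groups received corn oil on the same schedule. The series compares how the mouse and the rat liver respond. Nothing in the labels states that each array came from a separate animal. The p-values therefore cover the spread between these samples only, and that spread may be technical.

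HNF4A, a nuclear receptor, ONECUT1 (also called HNF6), the 3 FOXA proteins and C/EBPα form a network of DNA-binding proteins that bind each other's promoters and keep liver genes such as those for albumin, apolipoproteins and clotting factors active in hepatocytes. FOXA proteins can bind DNA in closed chromatin and open it for other factors. C/EBPβ and C/EBPδ behave differently: their genes are switched on quickly by interleukin-6, interleukin-1, tumour necrosis factor and cAMP signals, and they drive acute-phase genes. C/EBPβ also takes part in the entry of hepatocytes into the cell cycle after injury.

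The promoter windows of Hnf4a and Foxa3 are shown because the first is the centre of this network and the second was the sole member whose change passed the test. Sequences are from RefSeq on the mouse build GRCm38.p6, 250 bases ending just before the annotated start, written 5′ to 3′ along the gene. Capitals mark matches on either strand to any of 5 strings. The FOX core was searched as TGTTTA. For the ONECUT family the string was ATCAAT. The C/EBP string was TTGCNNAA, with N for any base. The HNF4 string was CAAAGTCCA, and the TATA box was searched as TATAAA. No overlap between strings was removed. The Hnf4a windows lie on the + strand at chr2:163506607-163506856 and chr2:163546905-163547154, whose starts are 40298 bases apart, and the second belongs to the start used in adult liver. The Foxa3 window lies on the - strand at chr7:19023540-19023789.
Hnf4a upstream start: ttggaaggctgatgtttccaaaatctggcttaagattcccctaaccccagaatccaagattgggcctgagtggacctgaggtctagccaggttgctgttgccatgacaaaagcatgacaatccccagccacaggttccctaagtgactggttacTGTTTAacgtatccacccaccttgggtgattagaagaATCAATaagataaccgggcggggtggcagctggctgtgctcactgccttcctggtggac
Hnf4a downstream start: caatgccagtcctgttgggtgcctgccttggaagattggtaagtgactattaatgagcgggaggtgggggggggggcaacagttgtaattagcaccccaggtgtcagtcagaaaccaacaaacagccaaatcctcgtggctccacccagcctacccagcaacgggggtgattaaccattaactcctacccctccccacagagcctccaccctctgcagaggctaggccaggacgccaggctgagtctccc
Foxa3: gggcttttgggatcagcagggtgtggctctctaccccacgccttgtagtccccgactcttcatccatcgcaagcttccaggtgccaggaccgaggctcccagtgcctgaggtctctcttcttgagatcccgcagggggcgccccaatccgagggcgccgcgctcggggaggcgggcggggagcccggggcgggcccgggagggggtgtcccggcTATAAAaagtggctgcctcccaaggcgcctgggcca
The upstream Hnf4a window held 1 FOX match 96 bases before the start and 1 ONECUT match 59 bases before it. The downstream window held none of the 5 strings. The Foxa3 window held 1 TATA match, 36 bases before the start, and none of the other 4 strings. Of all 32851 windows of this length, 12.0% held the FOX letters, 6.72% the ONECUT letters, 9.56% the C/EBP letters, 0.384% the HNF4 letters and 12.4% the TATA letters. A match is a run of letters and not a shown binding site. Windows were found for 7 of the 8 members, and Cebpd is named only.

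The deposited values set each probe set against its matched oil arrays, dividing by the median of those 4, so 1 means the oil level, genes cannot be ranked by abundance, and whether hepatocyte markers were present cannot be read from the tables. The number of arrays limits the precision. In bulk liver, fewer cells of a type and less RNA per cell cannot be told apart. The Gapdh control probe sets at the 3′ and the 5′ end of that mRNA served as a relative measure of lost 5′ RNA. Both are ratios to the oil median, so a deficit common to a whole oil group would stay hidden. The counts therefore do not compare absolute loss between TCE and oil. In what follows, 5′ loss means a log2 difference above 1 on this relative scale. That difference exceeded 1 on 10 arrays, 9 with TCE and 1 with oil. They comprised 3 of 4 TCE arrays in each mouse schedule, 1 oil array of the repeated mouse schedule, 1 single-dose and 2 repeated-dose rat TCE arrays. Pancreatic exocrine markers stood apart on 5 arrays: their median log2 ratio was 3.43 on mouse single-dose oil array 3, 3.21 and 4.09 on single-dose TCE arrays 3 and 4, 2.15 on repeated-dose TCE array 1, and 5.16 on rat single-dose oil array 3. No exocrine marker passed the test in any of the 4 comparisons of TCE with oil, over 5 measured in mouse and 9 in rat.

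Among the 8 factors, 1 fall passed the test: Foxa3 in mouse liver after repeated TCE, which was 4.02-fold lower than in oil. Tests used limma on log2 ratios with Benjamini-Hochberg adjustment over all probe sets and a threshold of 0.05. After 1 dose none of the 8 mouse probe sets passed, where 8.3% of all mouse probe sets did, and 3 of the 8 had an unadjusted p under 0.05 (24.2% of all). After repeated doses 1 of 8 fell, where 8.48% of all probe sets fell, and 3 had an unadjusted p under 0.05 (27.5% of all). In rat 0 of 15 passed after 1 dose (1.72% of all) with 3 at an unadjusted p under 0.05 (19.2% of all), and 0 of 15 passed after repeated doses (2.81% of all) with 5 at an unadjusted p under 0.05 (18.9% of all). None of the 15 rat probe sets separated TCE from oil arrays without overlap after 1 dose, where 12.5% of all did. At the adjusted threshold no share of members lay clearly above the background. The median change of the members was 0.39 and -0.47 on the log2 scale in mouse after 1 and repeated doses, beside -0.09 and -0.15 over all probe sets. In rat it was -0.16 and 0.28, beside 0.14 and 0.04. The plot of all 23 changes with their intervals shows this spread.

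**Figure D1:**
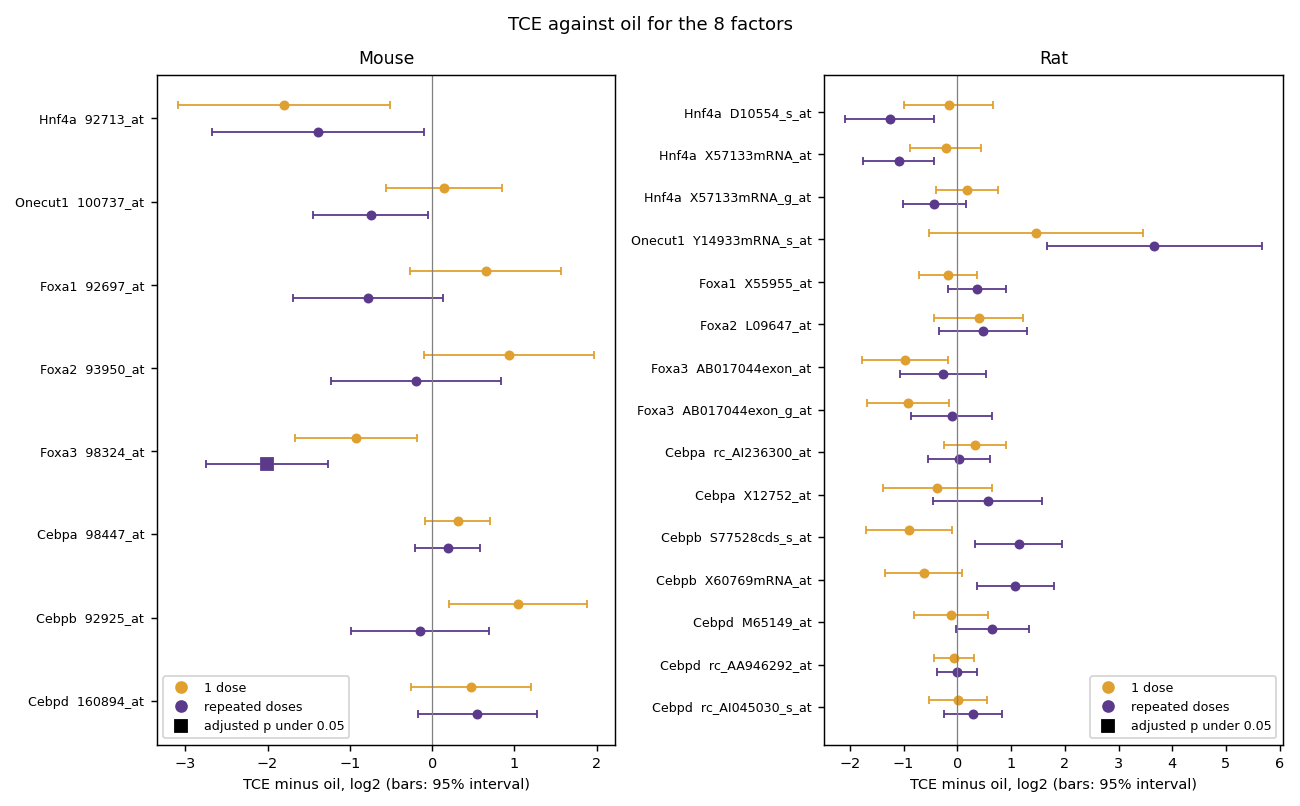
Change of each member probe set, TCE minus oil, as log2 of the ratio (x axis) with its 95% interval, in mouse (left) and rat (right); orange marks 1 dose, purple repeated doses and a square an adjusted p under 0.05. Mouse Foxa3 after repeated doses, at -2.01, is the one square, and rat Onecut1 after repeated doses, at 3.67, has the widest intervals.

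Foxa3, a FOXA gene with a part in glucose metabolism, was low on every mouse array of the repeated TCE group. The ratio was 0.57, 1.09, 0.906 and 1.26 on the oil arrays and 0.318, 0.147, 0.26 and 0.225 on the TCE arrays. All 4 TCE arrays lay below all 4 oil arrays, as for 12.4% of all mouse probe sets in this comparison. The change was -2.01 ± 0.35 on the log2 scale (SE, n = 4 against 4; adjusted p = 0.00437). The lowest TCE array was array 2 and the lowest oil array was array 1, and both were among the arrays with a Gapdh difference above 1. With that Gapdh difference as a covariate the change was -1.66 (adjusted p = 0.00497). Without the arrays above 1 it was -1.76, a fit that left only TCE array 1, which carried the pancreatic signal. With quantile normalization it was -1.56 (adjusted p = 0.218), and the call ended, as did most calls over all mouse probe sets in this comparison. Leaving out any array, including TCE array 1 with its pancreatic signal, gave -2.24 to -1.79, with adjusted p up to 0.0173.

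After 1 dose mouse Foxa3 read 1.03, 1.69, 0.612 and 0.965 on oil and 0.452, 0.853, 0.493 and 0.422 on TCE. The groups overlapped through TCE array 2 and oil array 3, and the change was -0.92 ± 0.35 (adjusted p = 0.116). It passed with the noisiest 40% of probe sets left out (adjusted p = 0.0443), and with the Gapdh covariate it was -0.23 (adjusted p = 0.812). TCE array 2, the one TCE array of that group without 5′ loss, held the highest of the 4 values. In rat the 2 Foxa3 probe sets gave changes of -0.97 and -0.92 after 1 dose (adjusted p = 0.18 and 0.178) and of -0.27 and -0.11 after repeated doses (adjusted p = 0.755 and 0.91). On the probe set AB017044exon_at the single-dose values were 0.939, 1.06, 0.472 and 1.15 on oil and 0.514, 0.439, 0.477 and 0.346 on TCE, and oil array 3, the array with pancreatic signal, lay among the TCE arrays.

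The mouse genes whose log2 ratios ran closest to those of Foxa3 over the 16 mouse arrays were Dnajb9, an HSP40 co-chaperone of the endoplasmic reticulum, and Egfr, the epidermal growth factor receptor. Their mean absolute log2 difference from Foxa3 was 0.27 and 0.30, beside a median of 0.98 over the 10691 probe sets ranked.

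Foxa1 and Foxa2, the FOXA genes that act first in liver development, did not pass in either species. Mouse Foxa1 read 1.54, 1.28, 0.724 and 0.589 on oil and 1.35, 1.27, 2.41 and 1.22 on TCE after 1 dose, and 1.56, 1.28, 0.682 and 0.715 on oil and 0.301, 0.444, 0.874 and 0.958 on TCE after repeated doses. All 4 single-dose TCE arrays were above the oil median and all 4 repeated-dose TCE arrays below it, while the groups overlapped in both schedules. The changes were 0.65 ± 0.43 (adjusted p = 0.388) and -0.78 ± 0.43 (adjusted p = 0.256). Mouse Foxa2 ranged from 1.45 to 3.07 on single-dose TCE arrays and from 0.805 to 1.66 on their oil arrays, a change of 0.94 ± 0.48 (adjusted p = 0.257). After repeated doses its TCE arrays spanned 0.494 to 1.98 around the oil range of 0.598 to 2.08, a change of -0.19. In rat Foxa1 changed by -0.18 and 0.36 and Foxa2 by 0.40 and 0.47 after 1 and repeated doses, with adjusted p from 0.473 to 0.73.

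**Figure D2:**
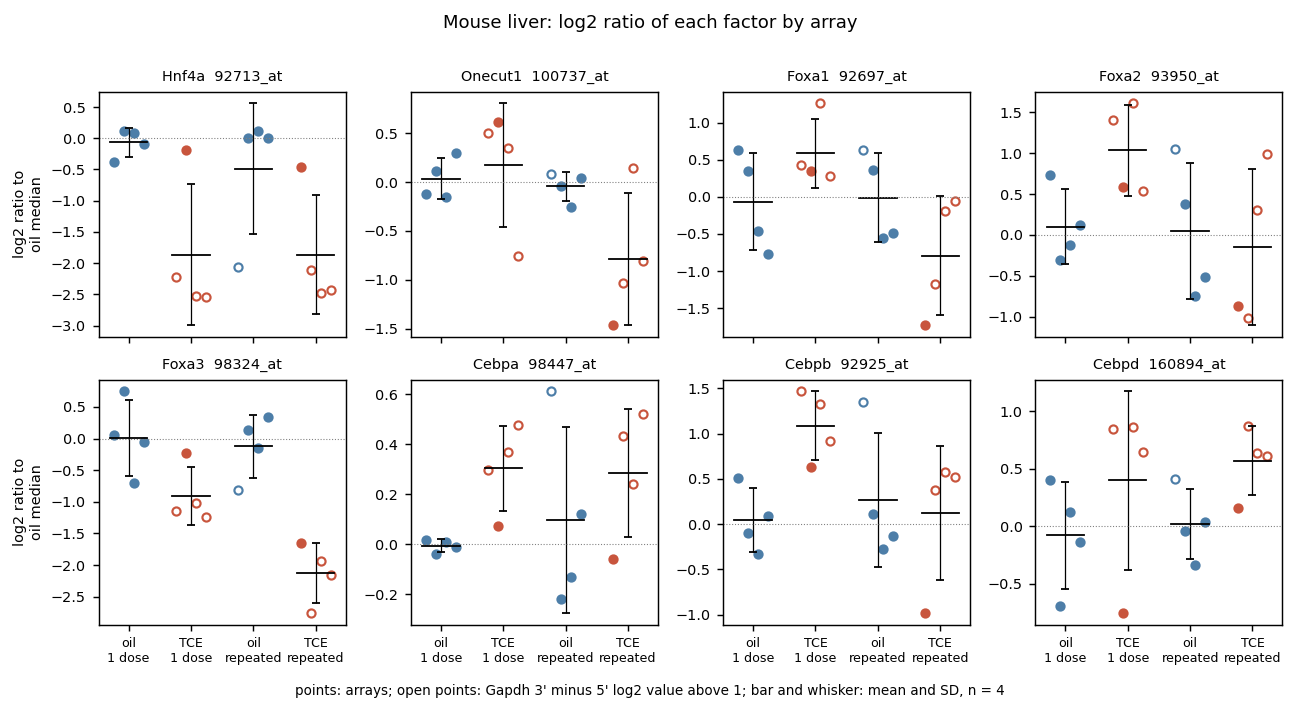
Log2 ratio to the oil median (y axis) of the 8 mouse probe sets on each array, by treatment and schedule (x axis), oil in blue and TCE in red; open points are arrays with a Gapdh 3′ minus 5′ value above 1, and bars and whiskers are the mean and SD of 4 arrays. Hnf4a is low on every open point and near 0 on the filled points, and Foxa3 is low on all 4 repeated-dose TCE arrays.

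Mouse Hnf4a was low on each array with a Gapdh difference above 1, whatever the treatment. After 1 dose it read 0.77, 1.09, 1.06 and 0.941 on oil and 0.214, 0.878, 0.174 and 0.172 on TCE. After repeated doses it read 0.239, 1.001, 1.09 and 0.999 on oil and 0.727, 0.232, 0.18 and 0.185 on TCE. The 6 TCE arrays with a Gapdh difference above 1 lay between 0.172 and 0.232 and the one such oil array at 0.239, whereas the other 2 TCE arrays read 0.727 and 0.878 and the other 7 oil arrays 0.77 to 1.09. The changes with TCE were -1.80 ± 0.60 (adjusted p = 0.0807) and -1.38 ± 0.60 (adjusted p = 0.151). With the Gapdh difference as a covariate they were -0.08 (adjusted p = 0.926) and -0.51 (adjusted p = 0.121). Without the arrays above 1 they were -0.12 and -0.50, with 1 TCE array left in each schedule. The one left after repeated doses was array 1, which carried the pancreatic signal. Calls appeared under other choices. Without single-dose TCE array 2 the change was -2.36 (adjusted p = 0.0179), and without repeated-dose oil array 1 it was -1.91 (adjusted p = 0.0455). The first was the one TCE array of its group without 5′ loss, and the second the one mouse oil array with it. Leaving out either array tied treatment more closely to the Gapdh difference. With array weights the values were -1.98 and -1.80 (adjusted p = 0.0187 and 0.0323).

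The 3 rat Hnf4a probe sets gave estimates of different size, and none passed. After repeated doses D10554_s_at read 0.884, 1.44, 1.12 and 0.609 on oil and 0.576, 0.419, 0.301 and 0.362 on TCE, a change of -1.26 ± 0.39 (adjusted p = 0.0875). X57133mRNA_at read 0.878, 1.44, 1.12 and 0.862 on oil and 0.543, 0.453, 0.392 and 0.616 on TCE, a change of -1.09 ± 0.31 (adjusted p = 0.0678). On both, all 4 TCE arrays lay below all 4 oil arrays. X57133mRNA_g_at, named for the same transcript record, read 0.528 to 1.21 on oil and 0.544 to 0.805 on TCE, so that the groups overlapped, and changed by -0.43 ± 0.27 (adjusted p = 0.421). Rat TCE arrays 3 and 4 of this group had a Gapdh difference above 1, and array 3 held the lowest value of the first and the second probe set. With the Gapdh covariate the 3 changes were -0.48, -0.60 and -0.21 (adjusted p = 0.39, 0.337 and 0.812). X57133mRNA_at passed after centring on array medians (adjusted p = 0.0496) and with the noisiest 40% of probe sets left out (adjusted p = 0.0186). After 1 dose the changes were -0.16, -0.21 and 0.18. On D10554_s_at the lowest single-dose value, 0.345, was that of TCE array 4, the one rat single-dose array with a Gapdh difference above 1.

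**Figure D3:**
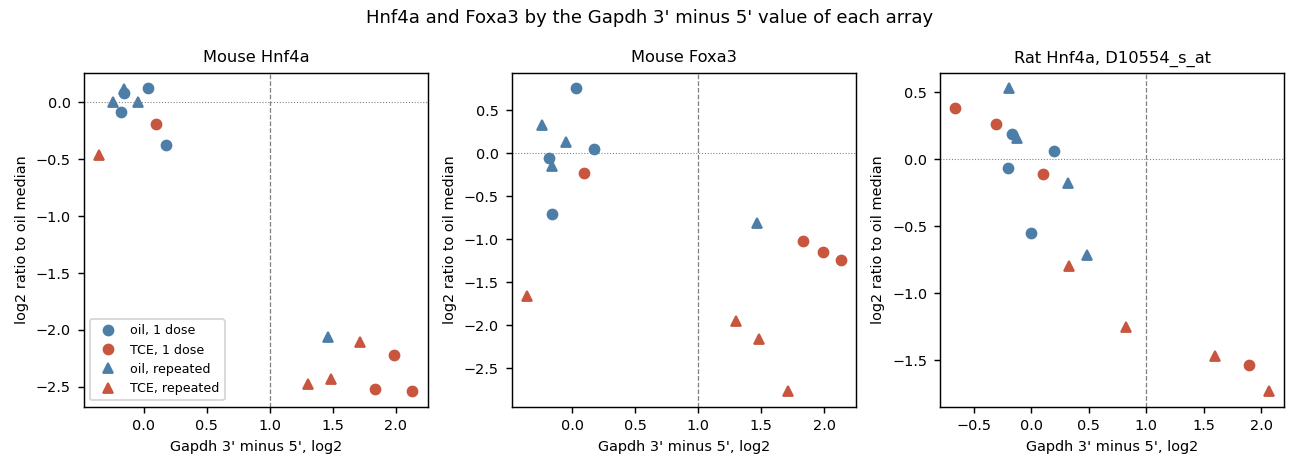
Log2 ratio of mouse Hnf4a, mouse Foxa3 and the rat Hnf4a probe set D10554_s_at (y axes) against the Gapdh 3′ minus 5′ log2 value of the same array (x axes), 16 arrays a panel, with oil in blue, TCE in red, circles for 1 dose and triangles for repeated doses; the dashed line marks 1. Mouse Hnf4a forms 7 low points right of the line and 9 higher points left of it, while mouse Foxa3 on the repeated-dose TCE array left of the line, at a ratio of 0.318, is also low. That array, TCE array 1, carried the pancreatic signal.

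Onecut1, which acts upstream of Hnf4a and Foxa2 in the network, gave the largest estimate of the members in rat and the least precise one. After repeated doses the rat probe set Y14933mRNA_s_at read 0.291, 3.96, 1.7 and 0.3 on oil and 21.4, 4.15, 8.41 and 20.4 on TCE. All 4 TCE arrays lay above all 4 oil arrays, but the oil arrays alone spanned a 13.6-fold range and TCE array 2 exceeded oil array 2 only slightly. The change was 3.67 ± 0.93 on the log2 scale (95% interval 1.67 to 5.66), with an adjusted p of 0.050005, just above the threshold. The probe set's spread within groups was at percentile 97.7 of all rat probe sets. It passed after centring on array medians (adjusted p = 0.0486), on log2(ratio + 1) (adjusted p = 0.0287), with array weights (adjusted p = 0.0442) and without oil array 2 (4.39, adjusted p = 0.0208). With quantile normalization the change was 3.02 (adjusted p = 0.327) and without the 2 arrays of 5′ loss 3.43 (adjusted p = 0.204). After 1 dose its values were 4.06, 1.24, 0.763 and 0.348 on oil and 1.53, 3.45, 8.62 and 1.69 on TCE, which overlapped, for a change of 1.46 ± 0.93 (adjusted p = 0.41).

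Mouse Onecut1 did not share that direction after repeated doses. Its oil arrays were tight, at 1.06, 0.971, 0.839 and 1.03, and its TCE arrays read 0.363, 0.489, 1.10 and 0.57. Array 3 thus stood above all oil arrays and the other 3 below them, for a change of -0.75 ± 0.33 (adjusted p = 0.154). Without TCE array 3 the change was -1.06 (adjusted p = 0.0404). After 1 dose the values were 0.917, 1.08, 0.901 and 1.23 on oil and 1.42, 1.53, 1.27 and 0.591 on TCE, a change of 0.14 ± 0.33 in which 3 TCE arrays lay above all oil arrays and array 4 below them.

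**Figure D4:**
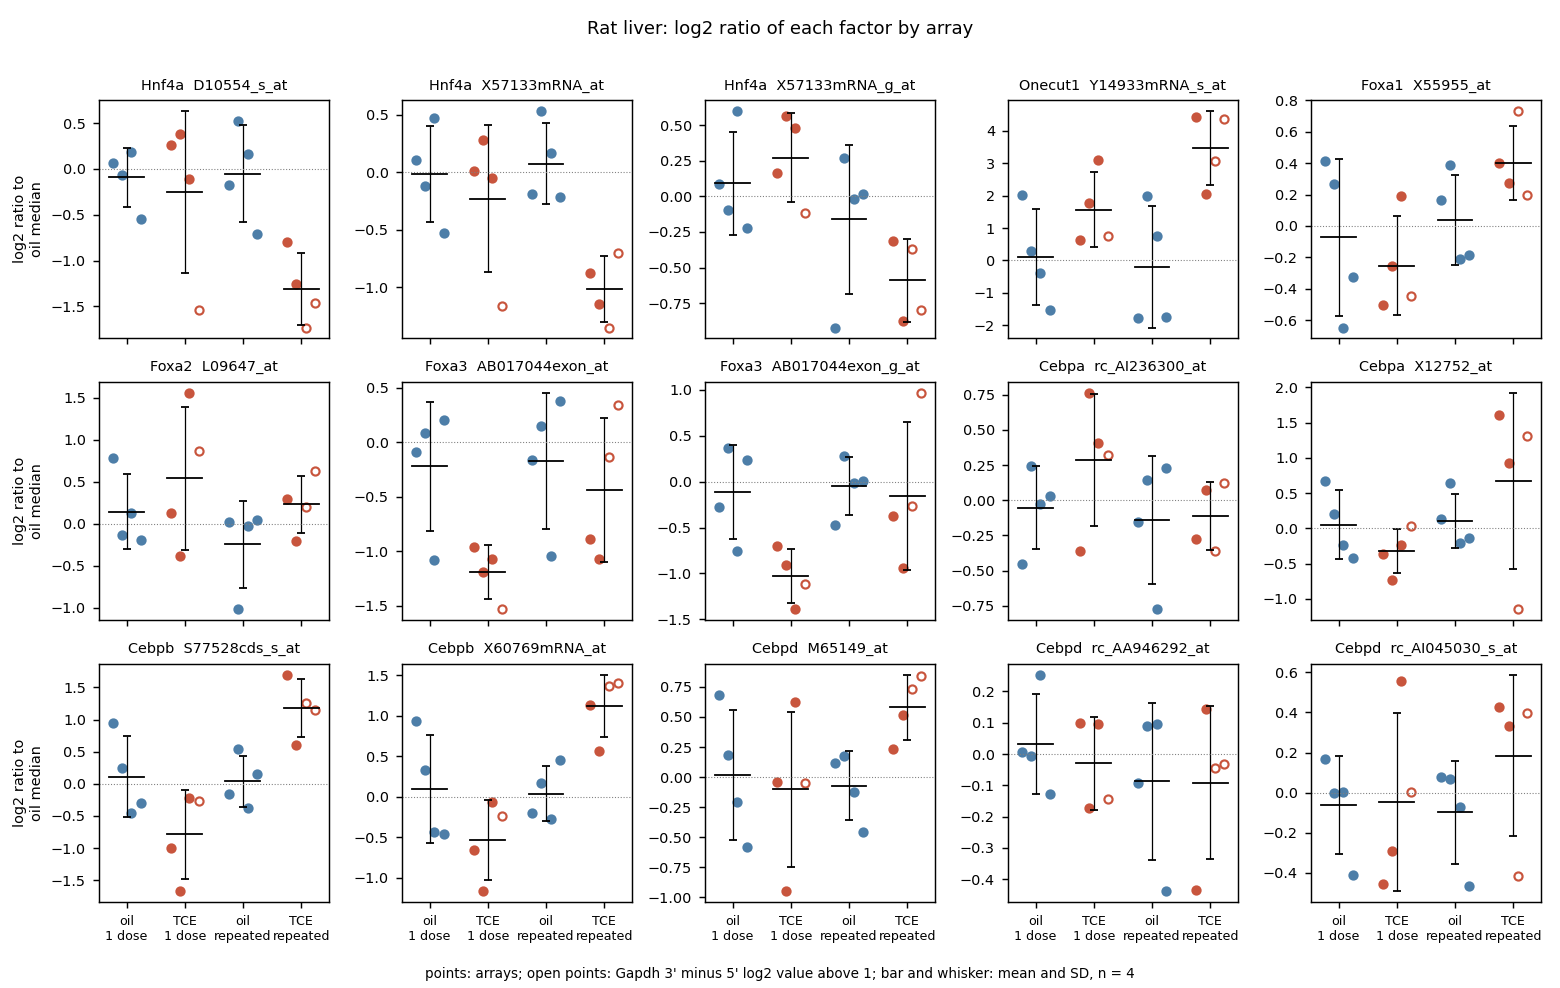
Log2 ratio to the oil median (y axis) of the 15 rat probe sets on each array, by treatment and schedule (x axis), with colours, open points and bars as in the plot of the mouse arrays. Repeated-dose TCE arrays lie above all their oil arrays for Onecut1, both Cebpb probe sets and the Cebpd probe set M65149_at, and below them for the Hnf4a probe sets D10554_s_at and X57133mRNA_at.

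The C/EBP genes gave no call, and Cebpb was the one with the largest differences between schedules. In mouse after 1 dose Cebpb read 1.42, 0.933, 0.799 and 1.07 on oil and 2.77, 1.55, 2.51 and 1.90 on TCE. The groups did not overlap, nor did those of Cebpa, so that 2 of 8 members stood apart without overlap where 17.6% of all probe sets did. The Cebpb change was 1.04 ± 0.39 (adjusted p = 0.116). After repeated doses it read 2.54, 1.08, 0.828 and 0.916 on oil and 0.505, 1.30, 1.49 and 1.43 on TCE, a change of -0.14 ± 0.39 (adjusted p = 0.848). The high oil array was array 1, which had a Gapdh difference above 1, and the low TCE array was array 1, which carried the pancreatic signal. Single-dose Cebpb passed with array weights (1.12). The lowest single-dose TCE value, 1.55, was that of array 2, the one TCE array of that group without 5′ loss. Over both schedules the 6 mouse TCE arrays with a Gapdh difference above 1 read 1.30 to 2.77. The other 2 read 0.505 and 1.55.

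In rat the 2 Cebpb probe sets ran together. After 1 dose S77528cds_s_at read 1.92, 1.18, 0.732 and 0.815 on oil and 0.501, 0.314, 0.861 and 0.835 on TCE, and X60769mRNA_at 1.92, 1.26, 0.742 and 0.729 on oil and 0.635, 0.446, 0.956 and 0.847 on TCE. Both overlapped their oil arrays, with changes of -0.90 and -0.63 (adjusted p = 0.208 and 0.326). After repeated doses S77528cds_s_at read 0.892, 1.45, 0.773 and 1.11 on oil and 3.24, 1.52, 2.40 and 2.22 on TCE, and X60769mRNA_at 0.869, 1.13, 0.828 and 1.37 on oil and 2.19, 1.49, 2.59 and 2.66 on TCE. Neither overlapped, and the changes were 1.14 ± 0.38 and 1.08 ± 0.34 (adjusted p = 0.11 and 0.0904). In this comparison 6 of the 15 rat member probe sets did not overlap, 4 above oil and 2 below, where 12.3% of all rat probe sets did not, 7.52% above and 4.79% below. The 6 probe sets belong to 4 genes. X60769mRNA_at passed on log2(ratio + 1) (adjusted p = 0.0483) and with the noisiest 40% of probe sets left out (adjusted p = 0.0277).

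Cebpa, whose protein holds adult hepatocytes out of the cell cycle, changed little in mouse. After 1 dose it read 1.01, 0.973, 1.01 and 0.993 on oil and 1.23, 1.05, 1.29 and 1.39 on TCE, a change of 0.31 ± 0.19 (adjusted p = 0.339), and after repeated doses the change was 0.19 ± 0.19 (adjusted p = 0.555). The 3 higher single-dose TCE arrays were those with a Gapdh difference above 1, and with that covariate the change was -0.09. In rat the 2 Cebpa probe sets did not run together. After repeated doses X12752_at read 1.09, 1.56, 0.869 and 0.908 on oil and 3.06, 1.90, 0.451 and 2.47 on TCE, while rc_AI236300_at stayed between 0.778 and 1.09 on TCE. Their changes were 0.57 ± 0.47 and 0.03 ± 0.27 (adjusted p = 0.559 and 0.971), and without TCE array 3 that of X12752_at was 1.17 (adjusted p = 0.049).

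Mouse Cebpd read 1.32, 0.62, 1.09 and 0.911 on oil and 1.80, 0.592, 1.82 and 1.57 on TCE after 1 dose, where TCE array 2 stood below all oil arrays and the other 3 above them. The changes were 0.48 ± 0.34 and 0.55 ± 0.34 after 1 and repeated doses (adjusted p = 0.43 and 0.319). TCE array 2 was again the one without 5′ loss, and with the Gapdh covariate the single-dose change was -0.28. Of the 3 rat Cebpd probe sets M65149_at changed by 0.65 ± 0.32 after repeated doses (adjusted p = 0.286), with TCE arrays at 1.18 to 1.79 above oil arrays at 0.728 to 1.13. The other 2 gave -0.0044 and 0.28, and all 3 lay between -0.12 and 0.01 after 1 dose.

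The TCE effect was compared between schedules within each species. In mouse 0 of 8 members passed, where 0.877% of all probe sets did, and 2 had an unadjusted limma p under 0.05 (18.8% of all). These were Foxa1, at -1.43 ± 0.60 for repeated minus single (adjusted p = 0.217), and Foxa3, at -1.08 ± 0.49 (adjusted p = 0.246). Cebpb was next at -1.19 ± 0.55 (adjusted p = 0.266). In rat 0 of 15 passed, and no probe set of the whole array did (0%), while 2 had an unadjusted limma p under 0.05 (9.36% of all). Those were the 2 Cebpb probe sets, at 2.04 ± 0.53 and 1.71 ± 0.47 (adjusted p = 0.384 and 0.408). On each of them all 4 TCE arrays were below the oil median after 1 dose and above it after repeated doses.

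The TCE effect was compared between species over the 3056 gene symbols on both arrays, with the probe set of smallest within-group SD for each gene. After 1 dose 0 of 8 members passed, where 4.22% of all genes did, and 2 had an unadjusted limma p under 0.05 (21.1% of all). Hnf4a differed by -1.98 ± 0.67 for mouse minus rat (adjusted p = 0.0873) and Cebpb by 1.67 ± 0.52 (adjusted p = 0.0657). Hnf4a passed with array weights (adjusted p = 0.0176) and without mouse single-dose TCE array 2 (-2.54, adjusted p = 0.0127), and read -0.43 without the arrays of 5′ loss. That array 2 was the one mouse single-dose TCE array without 5′ loss. Cebpb passed after centring (1.89), with array weights (1.81), without mouse oil array 1 (1.83) and without rat oil array 3 (1.85). Among mouse single-dose TCE arrays the lowest Cebpb value was also that of array 2. Foxa3 did not differ measurably, at 0.00 ± 0.50 (95% interval -1.03 to 1.03).

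After repeated doses 2 of 8 members differed between the species, where 10.5% of all genes did, and 4 had an unadjusted p under 0.05 (26.5% of all). The effect on Onecut1 was lower in mouse than in rat by a log2 difference of -4.41 ± 1.02 (adjusted p = 0.00574), from -0.75 in mouse and 3.67 in rat. Neither change passed within its own species (adjusted p = 0.154 and 0.050005). This fit used 1 estimate of spread per gene over both species, while the within-group SD of Onecut1 was 0.48 in mouse and 1.44 in rat. The effect on Foxa3 differed by -1.90 ± 0.50 (adjusted p = 0.0149), from -2.01 in mouse and -0.11 in rat. Foxa1 and Cebpb were also lower in mouse, by -1.14 ± 0.50 and -1.23 ± 0.52, without passing (adjusted p = 0.141 and 0.129). Quantile normalization ended both calls (Onecut1 -3.41, adjusted p = 0.181; Foxa3 -1.43, adjusted p = 0.413), as did leaving out arrays of 5′ loss (-4.81 and -1.15, adjusted p = 0.12 and 0.316), and Foxa3 read -0.63 on log2(ratio + 1) (adjusted p = 0.0739). Both calls held without any 1 of the 16 arrays compared, with adjusted p up to 0.0174 and 0.0387.

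In the gene lists that follow, a gene with several probe sets was read through the one with the smallest spread within groups. Some genes named as changed had 1 of 2 probe sets passing. In mouse these were Rxra after 1 dose, Nr2f2, Tnfrsf1a and Lcn2 after repeated doses, and Proc after both. In rat they were F10 after 1 dose and Tnfrsf1b after repeated doses. For mouse Ptprc after repeated doses 1 of 3 passed. Other liver transcription factors came first, and the shares of all genes follow their counts. Of 18 measured in mouse, 2 fell after 1 dose: Nr0b2, the small heterodimer partner that represses bile acid synthesis, by a log2 change of -1.08, and Rxra, the partner of many nuclear receptors, at -0.54. After repeated doses 2 others fell, Nr2f2 (COUP-TFII) at -1.80 and Atf4, a stress-response factor, at -0.80. Rxra (-0.46, adjusted p = 0.0559) and the nuclear receptor gene Nr5a2 (-0.14, adjusted p = 0.725) did not pass then, although 1 of 2 probe sets of each fell. With quantile normalization, and without the arrays of 5′ loss, 0 of 18 fell in either schedule, and with the Gapdh covariate 0 fell after 1 dose and 4 after repeated doses, 2 of which had also fallen without it. Of all genes named on the mouse array 4.57% and 9.42% fell in these comparisons, and 4.74% and 2.39% rose. In rat 0 of 18 passed with limma after either schedule, where 0.528% and 0.633% of genes fell and 1.16% and 2.32% rose. Of the signals that act on Cebpb and Cebpd, 18 were measured in mouse. The p38 kinase gene Mapk14 rose after 1 dose (0.67), and after repeated doses the tumour necrosis factor receptor gene Tnfrsf1a rose (1.21) while the coactivator gene Crebbp (-1.13) and the interleukin-1 receptor gene Il1r1 (-0.92) fell. In rat 1 of 14 fell, the receptor gene Tnfrsf1b after repeated doses (-1.16). With the Gapdh covariate 0 of the mouse signals passed after 1 dose. After repeated doses 1 mouse signal then rose and 3 fell, 1 of which had also fallen without it. In rat Tnfrsf1b kept its call with the covariate, and 1 signal fell after 1 dose that had not fallen without it. With quantile normalization none of these signals passed in either species, and without the arrays of 5′ loss Tnfrsf1b alone did.

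Among textbook target genes of these factors, falls in mouse were most frequent in the HNF4A list. The lists overlap, and their counts are descriptions. Of 22 measured HNF4A targets 9 fell and 2 rose after 1 dose, with a median change of -0.44 beside -0.08 over all genes. Examples were the anticoagulant protein C gene Proc (-0.98) and Mttp, which loads lipid onto lipoproteins (-0.91), while the apolipoprotein gene Apoa4 (2.06) and the bile acid enzyme gene Cyp8b1 (0.91) rose. After repeated doses 9 fell and none rose, with a median of -0.62 beside -0.16, among them Cyp7a1, which starts the conversion of cholesterol to bile acids (-1.85), Apob (-1.72), Mttp (-1.50) and Proc (-0.93). Of 22 C/EBP targets 1 fell after 1 dose, the serum amyloid gene Saa4 (-3.57). After repeated doses 7 fell, led by Saa4 (-2.30), the inter-alpha-trypsin inhibitor gene Itih4 (-1.55) and the orosomucoid gene Orm1 (-1.30), and 1 rose, the siderophore-binding lipocalin gene Lcn2 (0.59). Of 11 FOXA targets 1 fell after 1 dose, Apob (-0.77), and 2 after repeated doses, Apob and the tyrosine aminotransferase gene Tat (-0.59).

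These target counts changed with the arrays and the scaling. With the Gapdh covariate 3 of the 22 HNF4A targets fell after 1 dose and 13 after repeated doses, of which 2 and 9 had also fallen without it, where 1.18% and 10.9% of all genes fell. Of the mouse FOXA targets 0 then fell after 1 dose and 4 after repeated doses, 1 of which had also fallen without it. Of the mouse C/EBP targets 0 and 7 fell, 6 of the 7 also without it, and 0 rose. Without the arrays of 5′ loss, which left 1 mouse TCE array per schedule, none of the mouse target genes passed, with HNF4A list medians of -0.41 and -0.44, and with quantile normalization none fell. In rat 1 HNF4A target of 17 fell in each schedule, the clotting factor X gene F10 after 1 dose (-0.93) and Apoa4 after repeated doses (-1.52). Pck1, the rate-limiting gluconeogenic enzyme gene and a member of both the FOXA and the C/EBP list, fell in rat after 1 dose (-1.40) and repeated doses (-1.61). No rat target fell with quantile normalization or without the arrays of 5′ loss, and with the Gapdh covariate the falls after 1 dose kept their calls and those after repeated doses lost them. Of the rat Apob probe sets 3 of 5 rose after 1 dose, while the one read here did not pass (-0.20, adjusted p = 0.563).

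Markers of other liver cells are set beside all genes. Of all mouse genes 4.57% fell after 1 dose and 9.42% after repeated doses, and in rat 0.528% and 0.633%. After 1 dose no marker passed in either species on the probe set read for each gene. In mouse after repeated doses the macrophage genes Csf1r (-0.63) and C1qa (-0.99), 2 of 7 markers, fell, as did the endothelial gene Tek (-1.03), 1 of 6, and the leukocyte gene Ptprc (-1.99), 1 of 5 lymphocyte markers. None of 4 cholangiocyte and 5 stellate markers passed in either mouse schedule on that probe set, though 1 of 3 probe sets of the collagen gene Col3a1, a stellate marker, fell in both, and Tat was the 1 of 6 hepatocyte markers that fell, after repeated doses. In rat the endothelial gene Pecam1 (-1.43) fell after repeated doses, 1 of 3, and no marker of hepatocytes, cholangiocytes, macrophages, stellate cells or lymphocytes passed on the probe set read, while 1 of 3 probe sets of the hepatocyte gene Serpina1 did after repeated doses. With quantile normalization no marker in these lists fell in either species. Without the arrays of 5′ loss none fell in mouse and Pecam1 still did in rat, and with the Gapdh covariate Pecam1 and Tat lost their calls. With that covariate 1 other mouse hepatocyte marker fell after repeated doses. The part of these marker shifts and of the pancreatic signal in the members' values was not tested.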

How the data were processed

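The deposited values were ratios that the authors made from MAS5 signals, per the submitters' processing notes, with no version named there. That each ratio is to the median of 4 matched oil arrays was found from the values (median 1 within 0.002 for 100% of probe sets). No brightness or depth could therefore weight a value. Control probe sets (66 in mouse, 59 in rat) were left out. Symbols came from the platform annotation, which gave 10833 mouse and 7006 rat probe sets exactly 1 symbol. No member value was missing, and arrays of a group shared at most 0.225% of values. Log2 ratios went into limma 3.58.1 under R 4.3.3 (lmFit, eBayes), 1 coefficient per group, using 16 arrays within a species and 32 between species, with no floor, filter or pseudocount. The model was tested on simulated data. Adjusted p-values are Benjamini-Hochberg values with a threshold of 0.05.

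The members and lists were chosen with earlier results of these data known. All 8 members are named. Lists name up to 4 genes past the threshold by size per comparison, a few fewer in the text. Likeness names the 2 nearest genes of a called member, predicted genes skipped. Replicate numbers were not treated as pairs: the correlation of same-numbered deviations was -0.17 to 0.08 over 16 pairs, with none over 0.1. In mouse after 1 dose each array correlated best with its own number, though only at 0.05 to 0.08. Other settings tried were array weights, quantile normalization, log2(ratio + 1), median centring of arrays, a replicate block, fits on only the arrays compared, the Gapdh covariate, dropping arrays whose Gapdh difference exceeded 1, dropping the noisiest 40% of probe sets, averaging a gene's probe sets, and dropping each array singly; their use on single differences and on lists was added after the data were examined. Plots used matplotlib 3.10.9 (Python 3.11.15).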

Additional observations from a re-analysis of the deposited data

Results flagged for a closer look

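Of 92 groups of 4 arrays, 7 held an array far from the other 3 by Dixon's test, and chance gives about 1 in 20. For mouse Hnf4a these were single-dose TCE array 2, at a ratio of 0.878 above the others, and repeated-dose oil array 1, at 0.239 below them. Mouse Foxa1 was high on single-dose TCE array 3 (2.41), mouse Cebpb low on repeated-dose TCE array 1 (0.505) and mouse Cebpd low on single-dose TCE array 2 (0.592). In rat Foxa2 was low on repeated-dose oil array 2 (0.494), and the Cebpd probe set rc_AI045030_s_at was low on repeated-dose TCE array 3 (0.749). On mouse single-dose TCE array 2 the Gapdh 3′ minus 5′ value was 0.09, and on repeated-dose oil array 1 it was 1.46.

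Several effects ran in opposite directions on every TCE array of the groups set side by side. Between schedules these were mouse Foxa1 (-1.43 for repeated minus single, limma adjusted p = 0.217) and the rat Cebpb probe sets (2.04 and 1.71, adjusted p = 0.384 and 0.408), none of which passed the test of the difference. Between species (mouse minus rat) they were Cebpb after 1 dose (1.67, adjusted p = 0.0657) and, after repeated doses, Foxa1 (-1.14, adjusted p = 0.141). The differences of Onecut1 (-4.41, adjusted p = 0.00574) and Foxa3 (-1.90, adjusted p = 0.0149) after repeated doses passed the test itself.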

How the results depend on the processing

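Among members, the mouse Foxa3 fall after repeated doses kept its direction under every alternative and lost its call under quantile normalization and without the arrays of 5′ loss; the cause was not tested, though the latter leaves 1 mouse TCE array per schedule. Member counts by alternative were as follows. After 1 dose in mouse 2 members passed with array weights, 1 without the noisiest 40% of probe sets and 0 to 1 when single arrays were left out. After repeated doses in mouse 0 passed with quantile normalization, 2 with array weights, 0 without the arrays of 5′ loss and 1 to 2 when single arrays were left out. After repeated doses in rat 2 passed after centring, 2 on log2(ratio + 1), 1 with array weights, 2 without the noisiest 40% and 0 to 1 when single arrays were left out. Between species after 1 dose 1 passed after centring, 2 with array weights and 0 to 1 when single arrays were left out. After repeated doses 0 passed with quantile normalization, 1 on log2(ratio + 1), 0 without the arrays of 5′ loss and 0 without the noisiest 40%, a filter that removed Onecut1 and Foxa3. Over all probe sets, the 1031 changes of the mouse single-dose comparison became 59 with quantile normalization, 1550 with array weights, 278 with the Gapdh covariate, 18 without the arrays of 5′ loss and 519 to 1187 when single arrays were left out (lowest without oil arrays 2 and 3 and TCE arrays 1, 3 and 4). The 1331 of the mouse repeated-dose comparison became 7 with quantile normalization, 388 with only the arrays compared, 58 without the arrays of 5′ loss and 687 to 1271 when single arrays were left out (lowest without oil arrays 2 and 4 and TCE array 2). The 150 of the rat single-dose comparison became 2 with quantile normalization, 234 on log2(ratio + 1) and 69 with only the arrays compared. They became 417 with array weights, 59 with the replicate block, 256 with the Gapdh covariate and 29 without the arrays of 5′ loss. Without the noisiest 40% there were 441. Dropping single arrays gave 22 (without TCE array 1) to 128. Without oil array 2 or 4 or TCE array 2 or 4 the count was 25 to 55. The 246 of the rat repeated-dose comparison became 7 with quantile normalization, 392 on log2(ratio + 1) and 106 with only the arrays compared. They became 434 with array weights, 72 with the Gapdh covariate, 133 without the arrays of 5′ loss and 526 without the noisiest 40%. Dropping single arrays gave 100 (without oil array 1) to 316. Without oil array 4 or TCE array 2 or 4 the count was 120 to 154. The replicate block changed no member count; with it mouse Foxa3 after repeated doses kept an adjusted p of 0.0128. Some uncalled changes turned sign, among them those of mouse single-dose Foxa1 (0.65 in the main fit), Cebpd (0.48) and Cebpa (0.31). With the Gapdh covariate, mouse single-dose Foxa1 read -0.035, Cebpa -0.091 and Cebpd -0.28, mouse repeated-dose Cebpa -0.014, rat single-dose Hnf4a (D10554_s_at) 0.058 and rat repeated-dose Cebpd (rc_AA946292_at) 0.020. Without the arrays of 5′ loss, mouse single-dose Cebpd read -0.68, rat single-dose Hnf4a 0.27 (D10554_s_at) and 0.096 (X57133mRNA_at) and rat single-dose Cebpd (rc_AI045030_s_at) -0.0030. With quantile normalization mouse repeated-dose Foxa2 read 0.038 and rc_AI045030_s_at -0.049. After centring mouse repeated-dose Cebpb read 0.014, rc_AI045030_s_at -0.11 and rat repeated-dose Cebpa (rc_AI236300_at) -0.015. With array weights mouse repeated-dose Foxa2 read 0.0056 and Cebpb 0.15, rat single-dose D10554_s_at 0.010 and rc_AI045030_s_at -0.018, and rat repeated-dose rc_AA946292_at 0.0040. Leaving out single arrays gave ranges across 0 for mouse single-dose Onecut1 (-0.0016 to 0.46), mouse repeated-dose Foxa2 (-0.57 to 0.14) and Cebpb (-0.32 to 0.23). In rat after 1 dose they were -0.37 to 0.27 for D10554_s_at, -0.39 to 0.096 for X57133mRNA_at, and for Cebpd -0.36 to 0.16 (M65149_at), -0.11 to 0.013 (rc_AA946292_at) and -0.19 to 0.15 (rc_AI045030_s_at). In rat after repeated doses they were -0.48 to 0.16 for Foxa3 (AB017044exon_g_at), -0.18 to 0.15 for rc_AI236300_at and -0.12 to 0.11 for rc_AA946292_at.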
